A study of Mus musculus with 16 samples.

Results

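The genes described here encode the subunits of the mitochondrial respiratory chain and of ATP synthase that are carried in the nucleus. They were taken by symbol from the gene table of 16 mouse liver libraries: genes with a protein-coding transcript whose symbol begins as those of complex I (Nduf), complex II (Sdh), complex III (Uqcr and Cyc1), complex IV (Cox4 to Cox8) or complex V (Atp5). The choice used names only and no measured value, and gave 88 of the 55401 genes in the table. Complex I had 36, complex II 4, complex III 9, complex IV 21 and complex V 18, with Ndufa4 and Ndufa4l2 counted in complex IV. The table lists several transcript types for most genes. A gene was kept when protein-coding was one of them, and 25 of the 88 list no other type. A further 15 matching symbols have no coding transcript and were left out. The symbol pattern also takes Cox5b-ps and Ndufb1-ps, which are named as pseudogenes but typed as coding, and Cox7a2l, and it leaves out Ndufab1 and cytochrome c (Cycs).

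Poly(A) RNA was sequenced from the livers of 4 groups of 4 mice. The titles call them negative control (NC), negative control with BBR (NC + BBR), AKR1B10 knockdown (KD) and AKR1B10 knockdown with BBR (KD + BBR), and BBR is taken to be the plant alkaloid berberine, which the series title names. Codes in the sample descriptions carry the letters AAV in all 4 groups, read here as an adeno-associated virus vector, which the controls then received too. Strain, age, sex, diet, dose, duration, promoter and target sequence are not given in the sources used here. Akr1b10 (ENSMUSG00000061758), the mouse gene of that symbol, stood at 0.397 ± 0.151 FPKM in NC and 0.528 ± 0.230 FPKM in KD, and at 0.359 ± 0.169 and 0.451 ± 0.0583 FPKM in the same order with BBR (SD, n = 4 each), so "KD" below means the label. FPKM, as commonly defined, is a count scaled by transcript length and by the total of the library. The deposited FPKM and counts did not follow each other in this way for every member, as given with the levels. Since nothing says more than that the samples are separate mice, tests measure the spread between these libraries.

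The respiratory chain passes electrons from NADH (complex I) and succinate (complex II) through complex III and cytochrome c to oxygen at complex IV. The protons pumped on the way drive ATP synthase (complex V). Except for complex II, each complex joins nuclear-encoded subunits with a few encoded in mitochondrial DNA, and hepatocytes, which are rich in mitochondria, express nearly all of the nuclear ones. Several nuclear factors, among them NRF1, ETS-family GABP, YY1 and the estrogen-related receptors, are known to bind promoters of these genes.

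Promoters of 4 members are shown because these genes had among the smallest p-values of their complexes in the comparison of KD with NC, Ndufv1, Sdha and Atp5pb on the lower side and Ndufb4 on the higher. Each runs 5′ to 3′ from 250 bases before to 50 bases after the transcript start, from RefSeq on build GRCm38.p6. The positions are chr19:4012706-4013005, chr13:74350191-74350490, chr3:105959214-105959513 and chr16:37654319-37654618 in the order printed, all on the minus strand. Capitals mark matches to CGCANGCG (the NRF1 core), CCGGAAG (an ETS core) or AANATGGC (a YY1 core) on either strand.
Ndufv1: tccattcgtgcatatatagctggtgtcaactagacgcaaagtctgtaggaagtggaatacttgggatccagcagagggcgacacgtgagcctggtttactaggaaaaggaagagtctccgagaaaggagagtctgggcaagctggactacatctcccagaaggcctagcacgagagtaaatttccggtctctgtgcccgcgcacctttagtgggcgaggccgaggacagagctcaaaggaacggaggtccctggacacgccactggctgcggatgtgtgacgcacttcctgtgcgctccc
Sdha: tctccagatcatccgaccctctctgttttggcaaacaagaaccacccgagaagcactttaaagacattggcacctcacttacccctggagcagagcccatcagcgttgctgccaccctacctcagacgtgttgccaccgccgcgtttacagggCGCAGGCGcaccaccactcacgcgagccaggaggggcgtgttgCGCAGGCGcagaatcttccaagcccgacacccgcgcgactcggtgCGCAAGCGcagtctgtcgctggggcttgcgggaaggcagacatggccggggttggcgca
Atp5pb: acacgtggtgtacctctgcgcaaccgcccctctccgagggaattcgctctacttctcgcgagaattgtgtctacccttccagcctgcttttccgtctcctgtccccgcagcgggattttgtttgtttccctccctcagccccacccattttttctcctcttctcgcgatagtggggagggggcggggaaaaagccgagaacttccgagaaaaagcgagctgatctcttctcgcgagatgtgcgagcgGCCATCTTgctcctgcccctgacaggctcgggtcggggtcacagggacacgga
Ndufb4: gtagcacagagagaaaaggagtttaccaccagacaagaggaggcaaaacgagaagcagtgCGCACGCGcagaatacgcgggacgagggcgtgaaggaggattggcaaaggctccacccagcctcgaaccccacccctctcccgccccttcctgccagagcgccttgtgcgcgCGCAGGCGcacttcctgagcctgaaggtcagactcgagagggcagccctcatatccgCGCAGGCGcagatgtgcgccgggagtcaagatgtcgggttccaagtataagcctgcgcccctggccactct
The window of Sdha, which was lower in KD, and that of Ndufb4, which was higher, each held 3 matches to the NRF1 core. That of Atp5pb held 1 match to the YY1 core, and that of Ndufv1 held none of the 3. Across the members, 68 of 88 had a promoter in the table, and 24 of them (35.3%) held the NRF1 core, against 8.42% of all 27025 promoters and 18.3% of the 7558 promoters of tested genes. The YY1 core was in 22.1% of member promoters, 6.23% of all and 9.47% of tested genes. The ETS core was in 23.5%, 9.12% and 19.9% in the same order, the estrogen-related receptor site TCAAGGTCA in 2.94%, 0.407% and 0.278%, and the SP1 core GGGCGG in 41.2%, 35.9% and 63.7%. Each motif was searched on its own on both strands, so a base can count for more than 1 of them, and 45 of the 68 held at least 1 of the NRF1, ETS or YY1 cores. A match is a description of these letters and says nothing of binding in these livers.

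Total counts per library lay between 46273129 and 66235443. Genes were tested with edgeR's quasi-likelihood test on the counts when they reached 1 FPKM in at least 4 libraries, which 83 members did among 10846 genes. The 5 members below that were Cox6a2, Cox4i2, Cox8c, Cox7b2 and a second gene named Atp5o (chromosome 16, from 91684398), and Cox8c, Cox7b2 and that Atp5o had 0 counts in all 16 libraries. Hepatocyte markers summed to between 21284 and 44202 FPKM, and all 9 of those found in the table were detected. KD library 4 stood apart. Mitochondrially encoded genes took 35.4% of its counts against 10.98% to 15.9% elsewhere. Its hepatocyte sum was the lowest of the 16, and its TMM scaling factor was 0.775 against 0.947 to 1.08. FPKM values do not use that factor, so those of KD library 4 read lower against NC than its normalised counts do. KD library 3 had the highest sums of neutrophil (296 FPKM, against 1.05 to 21.2 in the others) and Kupffer cell markers (203 FPKM, against 34.98 to 122). NC + BBR library 2 held striated muscle transcripts, described with the muscle isoforms. In tissue RNA, fewer cells of a type and less RNA per cell cannot be told apart.

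The subunits were abundant in all groups. Mean levels over the 16 libraries ran from 1.44 FPKM for Cox8b to 605 FPKM for Cox6a1, with a median of 78.0 FPKM, and 77 of the 83 tested members averaged over 10 FPKM. The medians were 63.9 FPKM for complex I, 69.7 for complex II, 143.7 for complex III, 103.4 for complex IV and 80.3 for complex V. Within complex I the range was from 6.49 FPKM for Ndufs1, the largest iron-sulfur subunit, to 223 FPKM for Ndufa2, a small accessory subunit. By FPKM, the 3 most abundant transcripts of the set, those of Cox6a1, Cox8a and Cox6b1 with 605, 403 and 366 FPKM, belong to complex IV. FPKM and counts did not rank members alike. Cox6c, with 10071 to 23290 counts, averaged 71.0 FPKM, while Cox6b1 had 10923 to 21356 counts. Their longest coding transcripts have 738 and 618 bases. Comparisons of level between genes are therefore uncertain. Leaving out mitochondrially encoded counts, members took 1.72% ± 0.0802 of the remaining counts in NC, 1.65% ± 0.135 in NC + BBR, 1.58% ± 0.224 in KD and 1.57% ± 0.145 in KD + BBR (SD, n = 4). The 4 groups overlapped on that share.

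**Figure D1:**
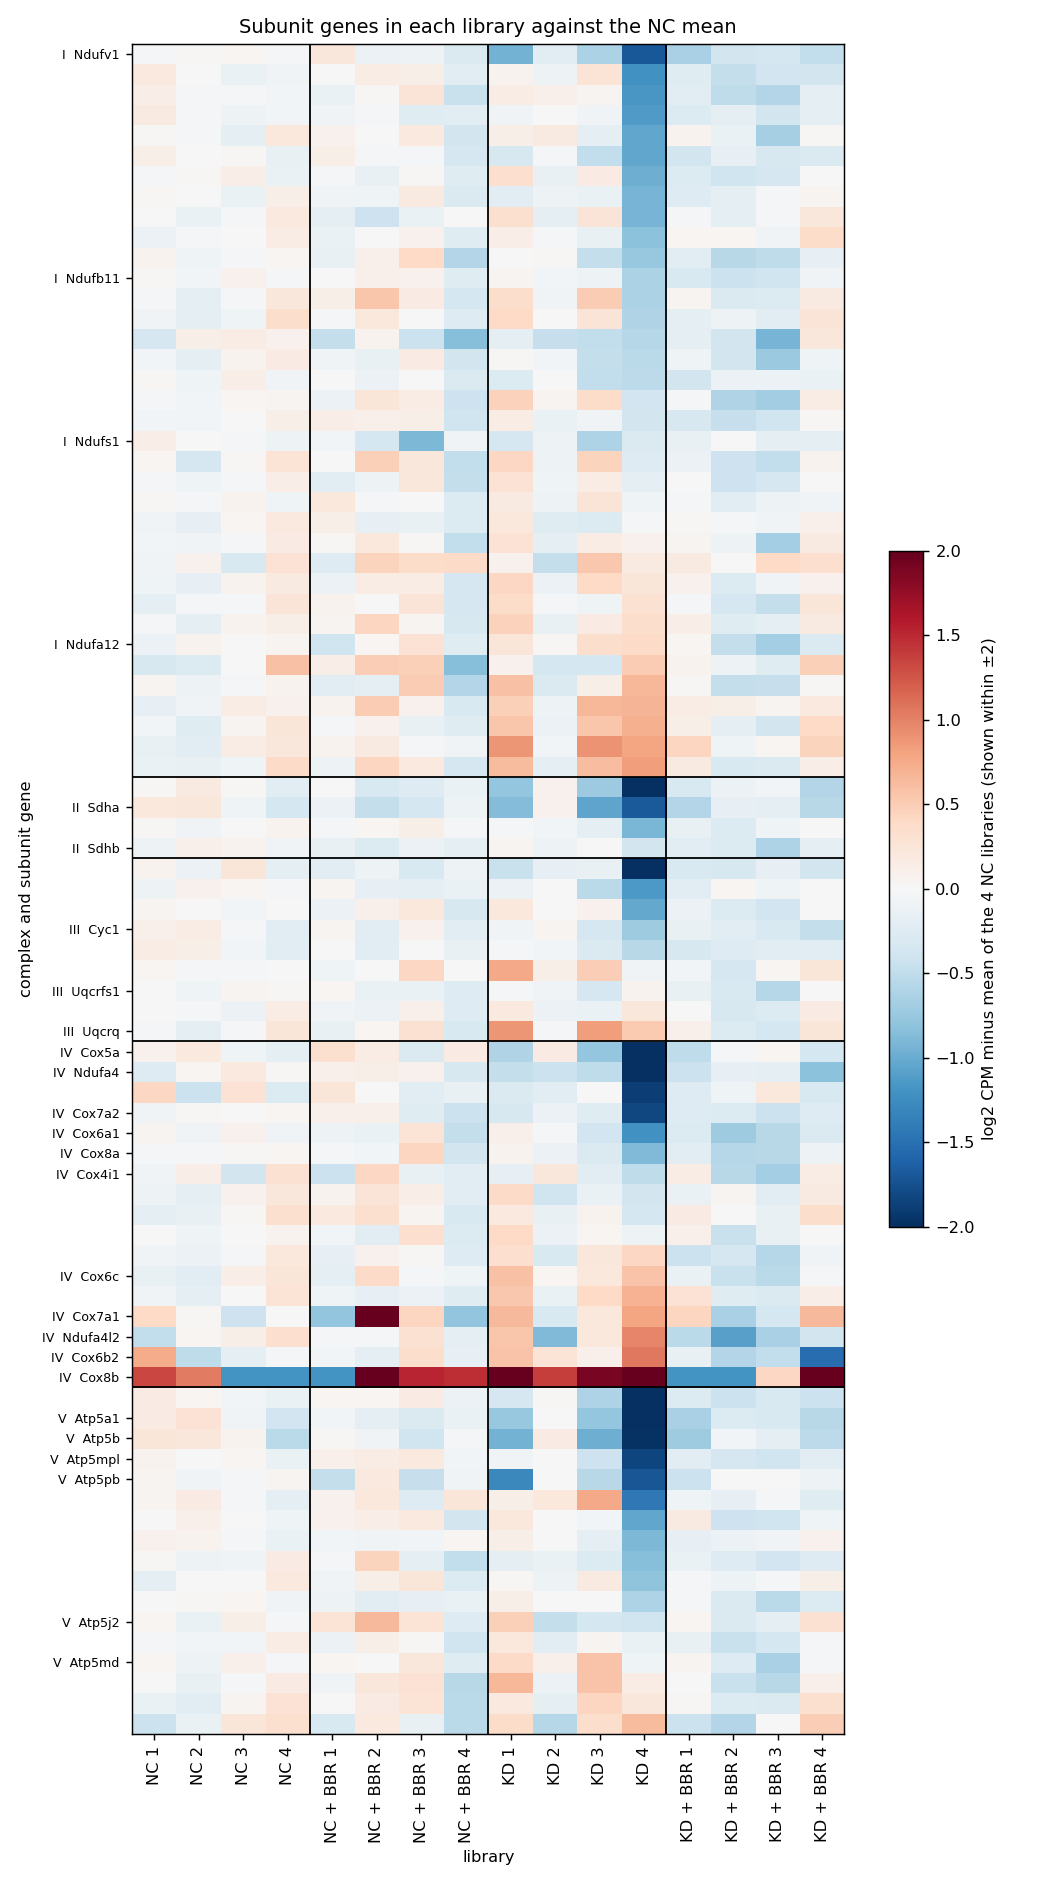
Log2 CPM of the 83 tested subunit genes (rows, by complex and then by their value in KD library 4) in each of the 16 libraries (columns), as the difference from the mean of the 4 NC libraries, with colours ending at ±2 and symbols given for rows named by rule. The column of KD library 4 holds both the deepest blue and many red cells, KD libraries 1 and 3 show paler versions of both, and KD library 2 is pale.

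The comparison of KD with NC asks what the vector labelled AKR1B10 knockdown does without berberine. Subunit genes did not shift together: 33 were higher and 50 lower in KD, with a median log2 fold change of -0.10, against a median of 0.02 over all 10846 genes. Without KD library 4 the median of the members was 0.04. With edgeR (quasi-likelihood, p-values adjusted by Benjamini-Hochberg across all 10846 genes), 0 members passed an adjusted p of 0.05 (0% of all genes did), and the lowest adjusted p of a member was 0.267. At an unadjusted p under 0.05, 6 members were higher and 9 lower, against 8.33% and 6.45% of all genes. On the FPKM scale with limma the balance was different: 24 members were higher and 59 lower, with a median of -0.24 against -0.08 for all genes. At that p, 1 member was higher and 17 lower by limma, where 402 and 1300 of the 10846 genes were, so all genes leaned lower on this scale. DESeq2 called 0 members, with a lowest adjusted p of 0.0751, where it called 0.968% of all genes. The 15 members at an unadjusted p under 0.05 (18.1%, against 14.8% of all genes) became 9, 8 and 9 without NC library 1, 2 or 3. They became 9 without KD library 3 or KD library 4, 26 (31.3%) without KD library 2, and 6 when only the NC and KD libraries were fitted. The share of all genes moved too, to 9.45%, 9.78% and 11.4% without NC library 1, 2 or 3. It was 11.7% without KD library 3, 10.2% without KD library 4, 27.4% without KD library 2 and 8.71% with only the NC and KD libraries.

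Without KD library 2, the same test called 10 members, beside 5.83% of all genes. Lower in that comparison were Ndufv1, Sdha, Sdhd, Atp5a1, Atp5b and Atp5pb, with log2 fold changes from -1.23 (Atp5b, SE 0.26, adjusted p 0.0272) to -1.01 (Ndufv1, SE 0.20, adjusted p 0.0259). Higher were Ndufb4, Uqcrq, Ndufs8 and Ndufb1-ps, from 0.62 (Ndufb1-ps, SE 0.17, adjusted p 0.0494) to 0.87 (Ndufb4, SE 0.16, adjusted p 0.0201). Each of the 16 libraries was left out in turn, and leaving out any of the other 15 called 0 members in this comparison. The labels give no ground for setting KD library 2 aside.

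In complex I, 17 of 36 genes were higher and 19 lower, with a median of -0.05 on the log2 scale, which was 0.11 without KD library 4. Ndufv1 carries the flavin that takes electrons from NADH. Its level was 32.4, 36.2, 32.9 and 33.6 FPKM in the 4 NC livers and 17.02, 27.7, 21.9 and 8.09 FPKM in the 4 KD livers. All 4 KD libraries lay below all 4 NC libraries, and the log2 fold change was -0.78 (SE 0.23, adjusted p 0.267 by edgeR). Ndufs1, which takes the electrons on from Ndufv1, held 7.98, 7.83, 6.93 and 7.08 FPKM in NC and 5.70, 6.58, 4.86 and 4.79 FPKM in KD, again without overlap (-0.33, SE 0.17, adjusted p 0.352). Ndufs3, a core subunit of the matrix arm, was lower too (-0.31, SE 0.13). The membrane-arm accessory subunit Ndufb4 was on the higher side. It held 32.3, 32.9, 38.6 and 43.9 FPKM in NC and 65.9, 33.5, 68.4 and 49.5 FPKM in KD, with KD library 2 inside the NC range (0.66, SE 0.20, adjusted p 0.267). Ndufs8, an iron-sulfur core subunit, was higher as well (0.46, SE 0.18). Of the 150-base windows along the transcripts of Ndufb4, 29.3% also occur in Ndufb4c, so its counts are uncertain.

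Complex II is the one without mitochondrially encoded subunits, and all 4 of its genes were lower in KD, with a median of -0.47, which was -0.24 without KD library 4. Sdha, the flavoprotein that oxidises succinate, held 86.6, 94.1, 68.3 and 60.9 FPKM in NC and 40.4, 77.1, 36.8 and 18.7 FPKM in KD (-0.76, SE 0.28, adjusted p 0.290). KD libraries 1, 3 and 4 lay below all NC libraries and KD library 2 lay among them. Sdhd, a membrane anchor, held 92.4, 111, 90.2 and 80.9 FPKM in NC and 52.5, 94.5, 56.8 and 17.1 FPKM in KD (-0.69, SE 0.30, adjusted p 0.315), with the same 3 libraries low. Sdhb, the iron-sulfur subunit, differed little (-0.10, SE 0.12): NC held 103, 128, 113 and 109 FPKM and KD 114, 101, 114 and 68.7 FPKM. The groups overlapped for all 4 genes.

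In complex III, 3 of 9 genes were higher and 6 lower (median -0.11). Uqcrq, a small subunit near cytochrome b, held 235, 229.9, 232 and 298 FPKM in NC and 443, 232, 445 and 279.8 FPKM in KD (0.59, SE 0.21, adjusted p 0.290). In FPKM, KD libraries 1 and 3 lay above the others. In normalised counts KD library 4 lay above every NC library too, at 0.53 over the NC mean on the log2 scale, against at most 0.24 in NC. The electron-carrying subunits differed less. Cyc1, cytochrome c1, held 92.4, 102, 82.5 and 77.2 FPKM in NC and 81.9, 87.7, 70.1 and 42.1 FPKM in KD (-0.24, SE 0.16). Uqcrfs1, the Rieske iron-sulfur protein, held 152, 156, 156 and 163 FPKM in NC and 150.0, 143, 126 and 129 FPKM in KD (-0.08, SE 0.13). Its FPKM values did not overlap between the groups, but its normalised counts did.

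In complex IV, 8 of 17 genes were higher and 9 lower (median -0.06, and 0.04 without KD library 4). Ndufa4, first described as a complex I protein and now placed in complex IV, held 144, 191, 193 and 183 FPKM in NC and 123, 125, 124 and 21.1 FPKM in KD, without overlap (-0.80, SE 0.34, adjusted p 0.314). KD libraries 1 to 3 agreed closely and KD library 4 was far below them. Cox5a, a matrix-side subunit, held 64.7, 75.1, 55.8 and 55.4 FPKM in NC and 39.7, 66.1, 36.7 and 7.40 FPKM in KD (-0.68, SE 0.38, adjusted p 0.392). The log2 fold change of Cox5a was -0.35 without KD library 4 and -1.09 without KD library 2, and that of Ndufa4 was -0.47 without KD library 4. Cox7a2, the ubiquitous isoform of its subunit, did not overlap between the groups either, with 112 to 129 FPKM in NC and 26.6 to 105 FPKM in KD (-0.49, SE 0.26). Cox4i1, a nuclear subunit needed for assembly, overlapped (-0.16, SE 0.24, and 0.04 with KD libraries 3 and 4 left out together), and Cox7c was among the higher ones (0.39, SE 0.18).

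In complex V, 5 of 17 genes were higher and 12 lower (median -0.14, and 0.03 without KD library 4). The catalytic head of ATP synthase alternates alpha and beta subunits, and both genes were lower in KD. Atp5a1, the alpha subunit, held 224, 263, 186 and 159 FPKM in NC and 117, 194, 121 and 38.1 FPKM in KD (-0.75, SE 0.30, adjusted p 0.298). Atp5b, the beta subunit, held 128, 137, 112 and 78.4 FPKM in NC and 56.2, 119, 57.2 and 22.1 FPKM in KD (-0.76, SE 0.33, adjusted p 0.314). Without KD library 4 these 2 values were -0.48 and -0.50, in the same order. As with Sdha, KD libraries 1, 3 and 4 lay below every NC library and KD library 2 within their range. Atp5pb, a subunit of the peripheral stalk, held 56.1, 55.5, 52.2 and 58.6 FPKM in NC and 22.02, 52.5, 38.05 and 13.3 FPKM in KD (-0.75, SE 0.28, adjusted p 0.290). Atp5k, a membrane subunit, had groups without overlap (-0.34, SE 0.19). Over all complexes, the normalised counts of 5 members (Ndufv1, Ndufs1, Ndufa4, Cox7a2 and Atp5k) were lower in KD without overlap and those of 1 (Cox8b) higher, against 2.52% and 2.36% of all genes.

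**Figure D2:**
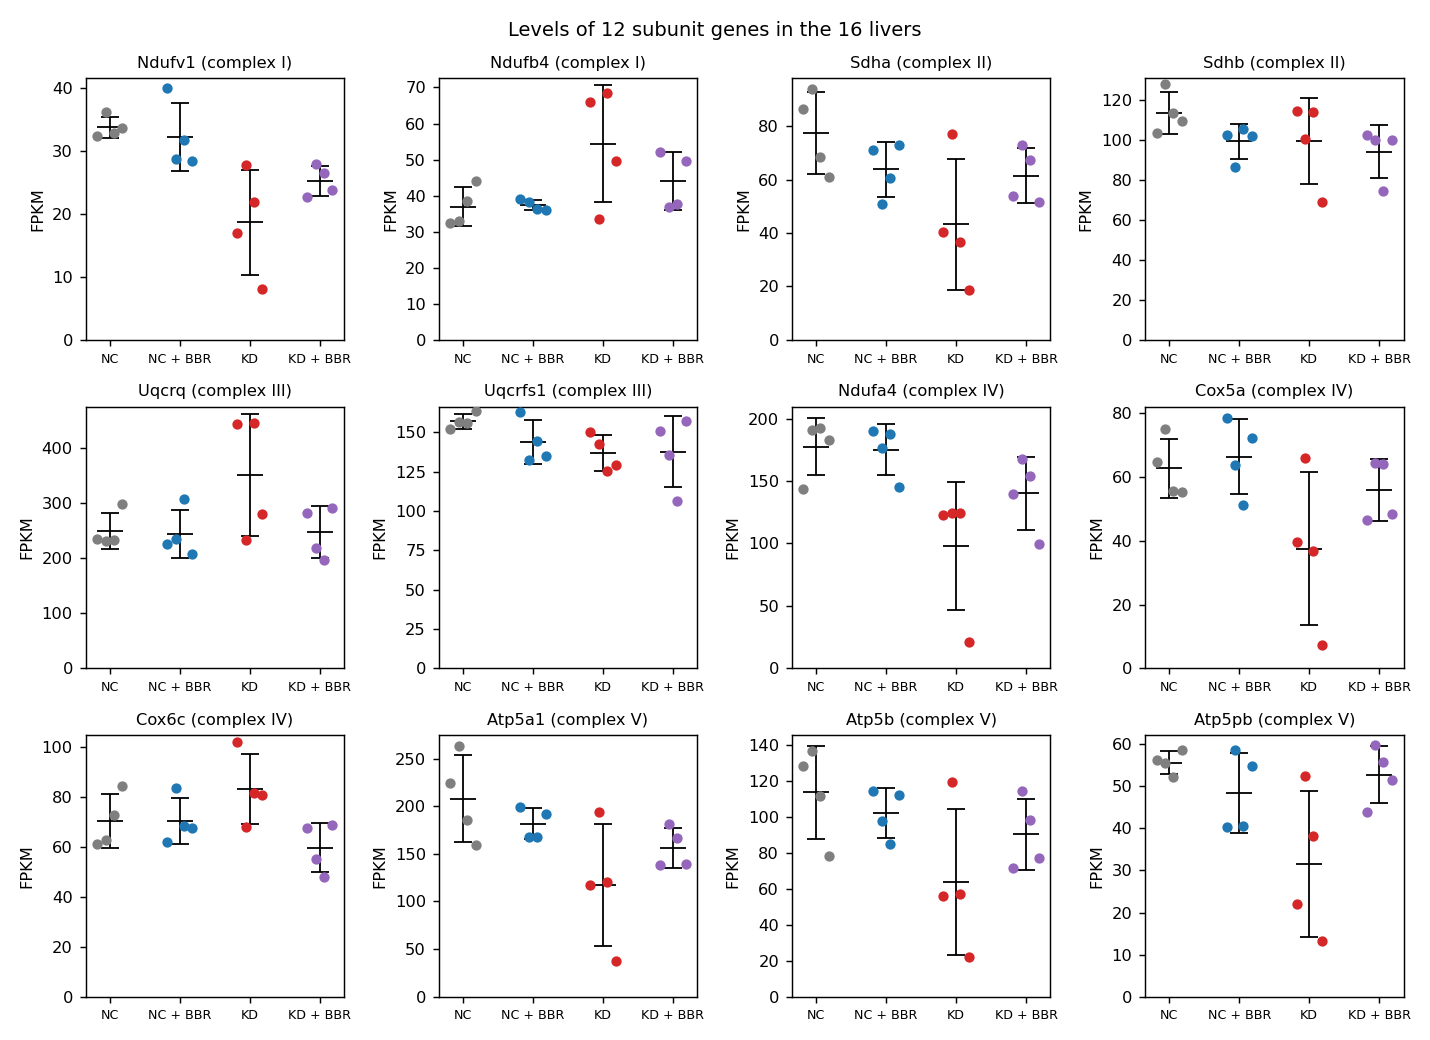
FPKM of 12 subunit genes in each liver (points, 4 per group), with the group mean and SD as black bars; every vertical axis starts at 0. Ndufv1, Sdha, Cox5a, Atp5a1, Atp5b and Atp5pb are lowest in KD library 4, Uqcrq and Ndufb4 are highest in KD libraries 1 and 3, and Cox6c has a lower mean in KD + BBR than in KD.

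The spread within the KD group was itself uneven. In KD library 4, 55 of the 83 members (66.3%) lay below every NC library and 20 (24.1%) above every one, where 37.3% and 37.4% of all genes did. The median deviation from the NC mean was -0.52 on the log2 CPM scale for members and 0.00 for all genes, and by complex it was -0.37, -1.29, -0.55, -0.35 and -0.85 from I to V. KD library 1 differed in the other direction, with 17 members (20.5%) below and 43 (51.8%) above, against 26.2% and 26.1% of all genes. KD library 2 had 26 (31.3%) below and 5 (6.02%) above, against 19.2% and 17.8%. KD library 3 had 34 (41.0%) below and 28 (33.7%) above, against 30.1% and 29.7%. The 4 livers of the group therefore did not share a direction over the whole chain.

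The members farthest from NC in KD library 4 came from all 5 complexes. In that library 23 members were more than 1 log2 unit below the NC mean: 6 of complex I, 2 of complex II, 3 of complex III, 5 of complex IV and 7 of complex V. The lowest were Atp5g3, a gene of the proton-carrying c ring (-2.92), Cox5a (-2.72) and Ndufa4 (-2.71). Another 14 were more than 0.5 above it, Ndufb4, Ndufa3, Cox7c, Ndufs8 and Uqcrq among them. Of the 23, 13 lay below every NC library in KD library 1, 3 in KD library 2 and 15 in KD library 3. For all 1759 genes chosen the same way, the shares were 53.2%, 14.4% and 46.9%. Of the 14, 12, 1 and 9 lay above every NC library in KD libraries 1, 2 and 3, and the shares for all 3276 such genes were 45.0%, 13.8% and 41.8%. These libraries are compared with the same NC livers, and the lists were chosen after values were seen, so no test is given. Mitochondrial share, hepatocyte marker sum and scaling factor moved with KD library 4 as given above. Over the whole KD group, all 9 tested Kupffer cell markers of 10 listed were higher than in NC, with sums of 70.0 to 203 FPKM against 34.98 to 84.1 FPKM and none of them at 0 in every library. Of 7 neutrophil markers the 3 tested were higher, with sums of 1.05 to 296 FPKM against 1.39 to 2.60 FPKM, and 7 of 9 hepatocyte markers were lower. The part of all these in the subunit values was not tested.

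**Figure D3:**
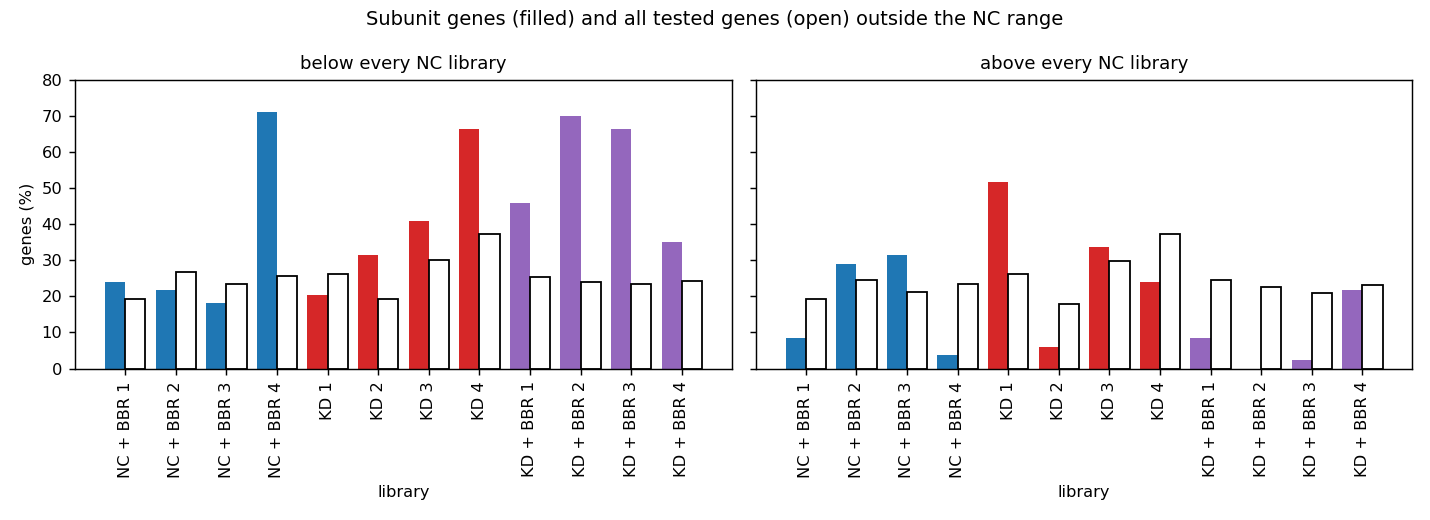
Share of the 83 tested subunit genes (filled bars, coloured by group) and of all 10846 tested genes (open bars) whose normalised count lay below every NC library (left) or above every one (right), in each of the 12 other libraries. In KD library 4, NC + BBR library 4 and KD + BBR libraries 2 and 3 over 60% of the subunit genes lie below the NC range, and in KD library 1 over 50% lie above it.

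Mitochondrially encoded subunits were counted beside the nuclear ones. All 13 were higher in KD than in NC by the group means, with a median log2 fold change of 0.78. Of the 13, 7 had an unadjusted p under 0.05 (lowest adjusted p 0.267), against 8.33% of all genes on the higher side. Without NC library 1, 2, 3 or 4 these 7 became 2, 1, 7 and 3. The higher genes at that p among all 10846 then numbered 584, 625, 736 and 976. Without KD library 4 the median of the 13 was 0.10, with 12 higher and 1 lower, and 1 had such a p. The median deviations from the NC mean were 0.38, 0.07, -0.12 and 1.87 in KD libraries 1 to 4. mt-Nd3, a complex I subunit, held 2768, 2635, 2918 and 3574 FPKM in NC and 5204, 2608, 4713 and 9279 FPKM in KD. In KD library 4 the counts of the 13 mitochondrial subunits were 41.3 times those of the nuclear members, against 6.91 to 11.3 times in the other 15 libraries. Assembly factors, which help build the complexes, gave 17 higher and 28 lower of 45 (median -0.13, and -0.04 without KD library 4). Their smallest p-values were those of Pet100 (1.25, SE 0.35, adjusted p 0.267) and Uqcc2 (0.66, SE 0.23), factors of complexes IV and III. Among 13 citric acid cycle genes 4 were higher and 9 lower (median -0.42, with KD library 4 included). Lower at an unadjusted p under 0.05 were 5 of them, against 6.45% of all genes. Without NC library 1, 2, 3 or 4 these 5 became 3, 4, 4 and 6. The lower genes at that p among all 10846 then numbered 441, 436, 501 and 743. Ogdh, a subunit of the 2-oxoglutarate dehydrogenase complex, stood at -0.44 (SE 0.12, adjusted p 0.267). The regulators of mitochondrial biogenesis gave 5 higher and 5 lower of 10 tested (median 0.04), and Pprc1, of the PGC-1 coactivator family, was nearest to the threshold (0.44, SE 0.28). In KD + BBR against NC + BBR the mitochondrially encoded subunits were higher in 11 of 13 (median 0.20), where the nuclear ones were mostly lower, and with BBR in the controls they split 6 and 7 (median -0.03).

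The comparison of NC + BBR with NC asks what berberine does in control livers. Subunit genes hardly differed: 28 were higher and 55 lower, with a median log2 fold change of -0.03 (all genes 0.00), which was 0.00 under upper-quartile scaling and 0.05 without NC + BBR library 4. No member passed (0 of 83 and 0% of all genes by edgeR, lowest adjusted p 0.999), and DESeq2 called 0 members and 0.0277% of all genes. At an unadjusted p under 0.05 there was 1 higher member, Cox8b, and 0 lower ones, against 1.74% and 1.94% of all genes. Groups that did not overlap in normalised counts numbered 0 higher and 2 lower, Sdhb and Atp5g2, against 1.48% and 2.07%. In FPKM Sdhb did overlap, and was 103, 128, 113 and 109 FPKM in NC and 103, 86.4, 106 and 102 FPKM in NC + BBR (-0.18, SE 0.12). Ndufs1 held 7.20, 5.36, 4.03 and 7.32 FPKM with BBR, overlapping NC (-0.31, SE 0.17). Uqcrfs1 (-0.12, SE 0.13) and Atp5j2, the f subunit of ATP synthase (0.26, SE 0.22), had the smallest p-values of their complexes.

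The 4 NC + BBR livers differed among themselves more than the group mean shows. In NC + BBR library 4, 59 members (71.1%) lay below every NC library and 3 (3.61%) above, against 25.6% and 23.3% of all genes, and 32 of the 36 complex I genes were among the 59. The other 3 libraries had 20, 18 and 15 members below, against 19.2%, 26.6% and 23.5% of all genes, and 7, 24 and 26 above, against 19.1%, 24.5% and 21.3%. The median deviations of the members were -0.05, 0.05, 0.09 and -0.26 in libraries 1 to 4.

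The comparison of KD + BBR with KD asks what berberine does under the knockdown label. The median log2 fold change of the members was -0.11 (all genes -0.03) with 32 higher and 51 lower, and it depended on the KD livers. It was -0.20 without KD library 4, with 63 members lower, -0.22 without KD libraries 3 and 4, -0.18 without KD + BBR library 4, and 0.01 without KD library 1. On the FPKM scale with limma it was 0.09, where the median of all genes was 0.11. There 2 members were higher and 5 lower at an unadjusted p under 0.05, where 1133 and 181 of the 10846 genes were. By edgeR 0 members passed (0% of all genes, lowest adjusted p 0.396), and DESeq2 called 0 members (lowest adjusted p 0.0806) and 0.507% of all genes. At an unadjusted p under 0.05, 1 member was higher and 13 were lower, against 4.27% and 5.21% of all genes. These 14 became 24 without KD library 2, 20 without KD library 4 (all lower) and 9 without KD library 3. They became 7 without KD + BBR library 2, 6 without KD + BBR library 3, and 8 when only the groups compared were fitted. The share of all genes at that p, in either direction, moved too, from 9.48% in the main fit. It was 18.7%, 10.98%, 8.06%, 5.81%, 6.95% and 6.18% in the same order.

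Of the 13, 5 belong to complex I, 1 to complex III, 5 to complex IV and 2 to complex V. Cox6c, a small membrane subunit of complex IV, held 102, 68.2, 81.7 and 81.0 FPKM in KD and 67.5, 55.1, 48.1 and 68.7 FPKM in KD + BBR (-0.64, SE 0.18, adjusted p 0.396). Its normalised counts did not overlap, though the FPKM values of KD library 2 and KD + BBR library 4 crossed. Ndufa12, an accessory subunit of the matrix arm, held 33.3, 28.2, 37.2 and 29.6 FPKM in KD and 31.9, 22.4, 18.3 and 23.8 FPKM in KD + BBR (-0.57, SE 0.17, adjusted p 0.396). Uqcrq held 281, 219, 196 and 291 FPKM in KD + BBR, against 443, 232, 445 and 279.8 FPKM in KD (-0.65, SE 0.21, adjusted p 0.396). Atp5md, a small membrane subunit of ATP synthase, went from 44.1, 35.9, 52.4 and 25.7 FPKM to 38.5, 31.2, 22.3 and 33.8 FPKM (-0.47, SE 0.17, adjusted p 0.450). Sdhb, with the smallest p of complex II, was lower too (-0.22, SE 0.12). The low-level isoforms Cox6b2 (-1.17, SE 0.35) and Ndufa4l2 (-1.003, SE 0.33) were lower as well. The member on the higher side was Atp5pb, with 43.9, 59.7, 55.6 and 51.5 FPKM in KD + BBR (0.62, SE 0.28, adjusted p 0.512). Cox6c and Cox6b2 were the 2 members lower without overlap, and 0 were higher, against 1.71% and 2.20% of all genes.

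By complex, the medians of KD + BBR against KD were -0.17 for I, 0.25 for II, -0.08 for III, -0.15 for IV and 0.09 for V. On the FPKM scale with limma those of complexes I, III and IV turned to 0.04, 0.13 and 0.08, and that of complex V turned to -0.14 without KD library 4. That of complex II was -0.07 with KD libraries 3 and 4 left out together. This comparison and that of KD with NC share the KD livers, so their values are not independent. The mitochondrially encoded subunits were lower in 13 of 13 (median -0.60, 2 with an unadjusted p under 0.05), but without KD library 4 the median was 0.02, with 7 higher and 6 lower. Kupffer cell markers were lower in 9 of 9 tested (median -0.50), with sums of 46.03 to 122 FPKM in KD + BBR, and hepatocyte markers were higher in 7 of 9 (median 0.13). Neutrophil marker sums were 2.16 to 8.35 FPKM in KD + BBR and, outside KD library 3, 1.05 to 6.21 FPKM in KD. The part of these in the subunit values was not tested.

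**Figure D4:**
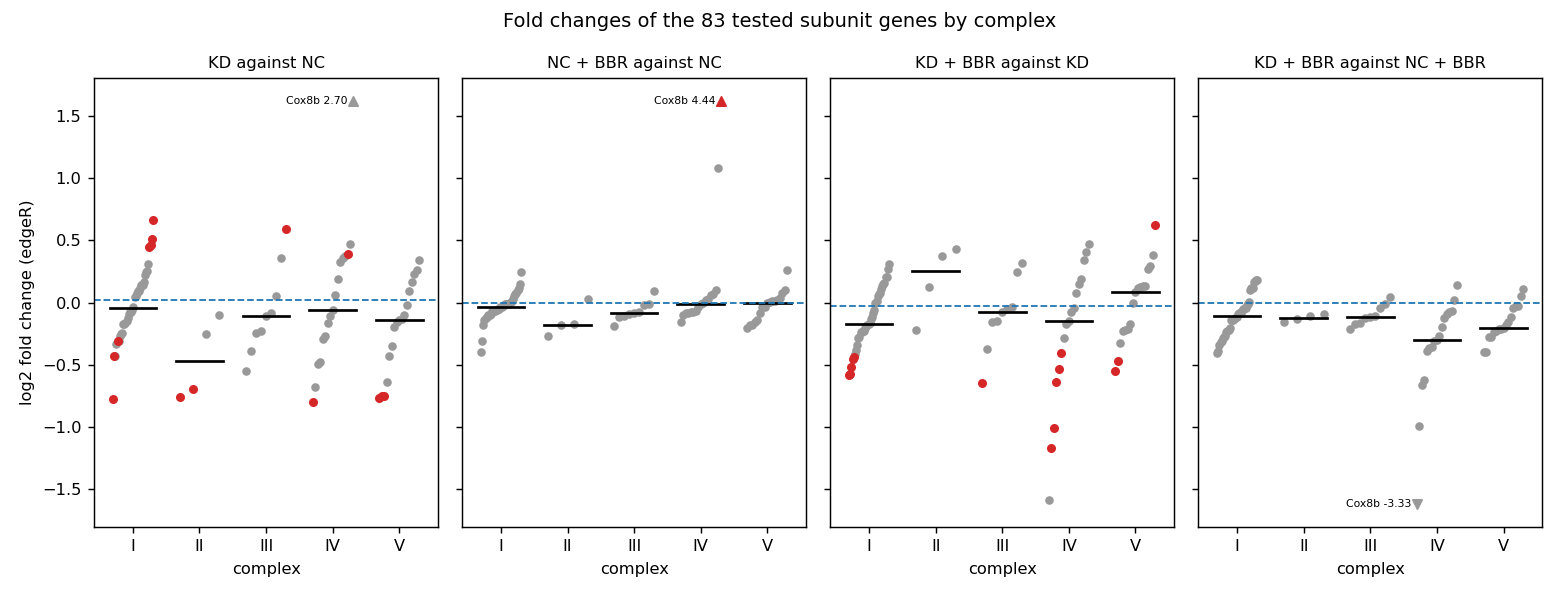
Log2 fold change of the 83 tested subunit genes by complex in 4 comparisons; red points have an unadjusted p under 0.05, black bars are medians over a complex, the dashed line is the median of all 10846 genes, and triangles are Cox8b values beyond the axis. No point passed the adjusted threshold. In KD + BBR against NC + BBR 70 of the 83 points lie below 0, as do 5535 of all 10846 genes.

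The comparison of KD + BBR with NC + BBR asks what the label does when both groups received berberine. Here 70 members were lower and 13 higher, where 5535 of the 10846 genes were lower and 5311 higher. The median log2 fold change of the members was -0.13, against -0.01 over all genes. Within groups, the members' median deviation had an SD of 0.17 between single libraries, pooled over all 4 groups, KD included. That SD describes single libraries and not the error of a difference between group means. The shift of the median was not tested. The differences were small: by edgeR 0 members passed (0% of all genes, lowest adjusted p 0.995), and 0 were higher and 0 lower at an unadjusted p under 0.05, where 2.38% and 2.19% of all genes were. DESeq2 called 0 members and 0.0461% of all genes. The median kept its sign in every alternative run, from -0.20 to -0.11 with single libraries left out, and was -0.08 on the FPKM scale. The number of lower members ran from 58 to 74 over those single libraries. At an unadjusted p under 0.05 it reached 10 without KD library 4 and 7 without NC + BBR library 4. It was 8 when only these 2 groups were fitted, and 0 members were higher at that p in these runs. The share of all genes at that p, in either direction, rose as well, to 7.33%, 6.91% and 7.14% in the same order. By complex the medians were -0.10, -0.12, -0.11, -0.30 and -0.21 from I to V, with 28 of 36, 4 of 4, 8 of 9, 15 of 17 and 15 of 17 genes lower.

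The groups of 6 members did not overlap and all 6 were lower (Ndufv1, Ndufs6, Uqcrc1, Ndufa4l2, Atp5g3 and Atp5mpl), against 2.27% of all genes, and 0 were higher, against 2.32%. Ndufv1 held 39.9, 28.7, 31.7 and 28.4 FPKM in NC + BBR and 22.7, 27.9, 26.5 and 23.8 FPKM in KD + BBR (-0.41, SE 0.23, adjusted p 0.995). Atp5mpl, a small membrane subunit of ATP synthase, held 62.7, 59.3, 66.6 and 57.5 FPKM in NC + BBR and 52.2, 49.1, 43.9 and 49.5 FPKM in KD + BBR (-0.40, SE 0.26). Ndufb11, an accessory subunit of complex I, had the smallest p of that complex. It held 185, 183, 199 and 162 FPKM against 160.0, 148, 141 and 177 FPKM, so the highest KD + BBR liver reached into the NC + BBR range (-0.28, SE 0.15). Sdhb (-0.13, SE 0.12) and Cyc1 (-0.21, SE 0.16) overlapped too.

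Set against the NC livers one by one, KD + BBR libraries 1 to 4 had 38, 58, 55 and 29 of the 83 members below every NC library, against 25.5%, 24%, 23.4% and 24.2% of all genes. Above every NC library were 7, 0, 2 and 18, against 24.7%, 22.7%, 20.9% and 23.1%. The median deviations of the members were -0.14, -0.27, -0.30 and 0.00, so libraries 2 and 3 were low and library 4 was not. Those of the NC + BBR libraries, given above, overlapped with these.

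The interaction asks whether berberine acts differently under the label. By edgeR 0 members passed (0% of all genes, lowest adjusted p 0.756), and DESeq2 called 0 members and 0.0922% of all genes. At an unadjusted p under 0.05 there were 1 positive member (Ndufs1) and 6 negative ones, against 2.71% and 3.84% of all genes. These 7 became 22 without KD library 2 and 12 without NC + BBR library 4. They became 2 to 4 without NC library 1, 2 or 3, NC + BBR library 2 or 3, KD library 1 or 3, or KD + BBR library 2 or 3. The share of all genes at that p, in either direction, was 6.56% in the main fit. It was 14.4% without KD library 2, 7.86% without NC + BBR library 4, and 4.24% to 6.68% in the runs with 2 to 4 members. Cox6c had the smallest p (-0.66, SE 0.25, adjusted p 0.756), with means of 70.4 FPKM in NC, 70.5 FPKM in NC + BBR, 83.2 FPKM in KD and 59.9 FPKM in KD + BBR. Cox8b (-6.02, SE 2.35) and Cox6b2 (-1.09, SE 0.49), both at low levels, came next. The median over members was -0.06 (all genes -0.01), and -0.19 without KD library 4, -0.16 without KD + BBR library 4 and -0.15 without NC + BBR library 4. On the FPKM scale with limma it was 0.13, where the median of all genes was 0.14. At an unadjusted p under 0.05 limma gave 2 positive members and 1 negative one, beside 697 and 151 of the 10846 genes.

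Several complex IV subunits and their partners exist as isoform pairs, one broadly expressed and one typical of muscle, lung or low oxygen. The liver libraries held the broad form of each. Cox6a1 averaged 605 FPKM where its muscle form Cox6a2 averaged 0.906, Cox8a 403 FPKM where Cox8b averaged 1.44, Cox7a2 103 FPKM where Cox7a1 averaged 3.19, Cox4i1 288 FPKM where the lung and hypoxia form Cox4i2 averaged 0.0603, and Ndufa4 148 FPKM where Ndufa4l2, induced by low oxygen, averaged 2.35. Cox4i2 had counts in 3 NC libraries and 1 NC + BBR library and 0 in all 8 KD and KD + BBR libraries.

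The muscle forms were high in 1 liver. Cox8b was listed at 0 in NC + BBR library 1 and held 15.05, 0.501 and 0.494 FPKM in libraries 2 to 4. Cox6a2 held 12.1 FPKM in library 2 and at most 0.540 FPKM in the other 15 libraries, and Cox7a1 held 13.5 FPKM there and 1.33 to 3.71 FPKM elsewhere. The summed level of 6 striated muscle markers, with none at 0 in every library, was 172 FPKM in NC + BBR library 2 and 0.169 to 4.59 FPKM in the other 15. Slc25a4, the heart and muscle form of the ADP/ATP carrier, was 16.2 FPKM there and 2.46 to 5.57 FPKM elsewhere. When NC + BBR library 2 was left out, Cox8b in NC + BBR against NC had a log2 fold change of 0.77 in place of 4.44 (SE 1.747, adjusted p 0.999). That of Cox7a1 was -0.27 in place of 1.08 (SE 0.63), and that of Cox8b in KD + BBR against NC + BBR was 0.36 in place of -3.33. Cox8b was also higher in KD, with 1.59, 0.397, 0.673 and 1.84 FPKM against 0.416, 0.342, 0 and 0 FPKM in NC (2.70, SE 1.69), where muscle marker sums were 2.07 to 3.56 FPKM in KD and 0.169 to 3.498 FPKM in NC. In normalised counts these groups did not overlap, while in FPKM the lowest KD value lay below the highest NC value.

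**Figure D5:**
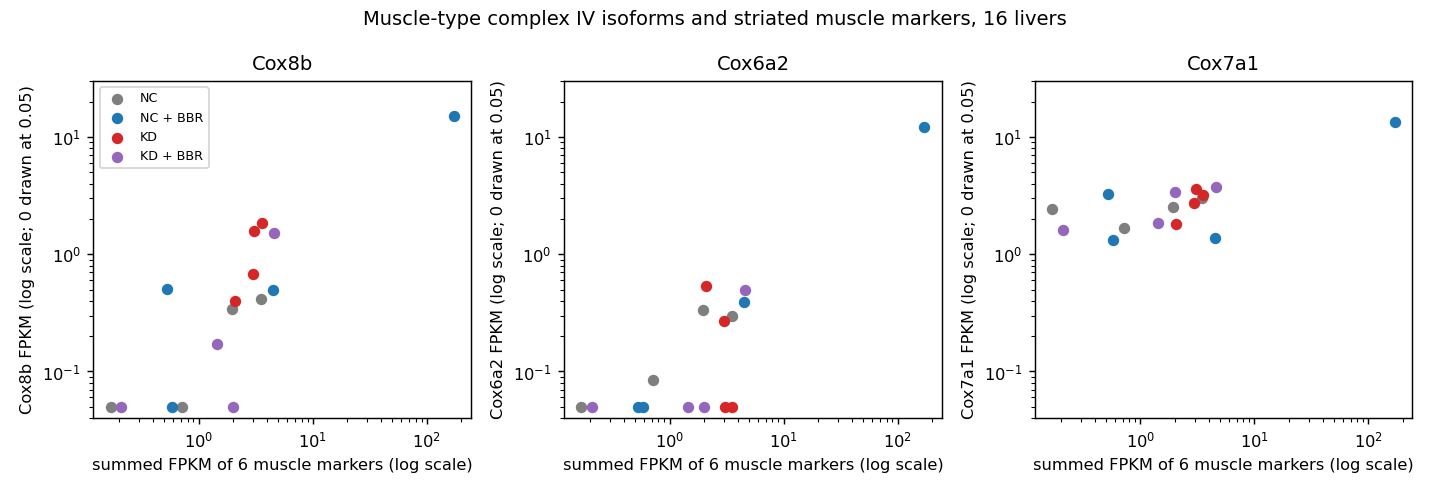
FPKM of 3 muscle-type complex IV isoforms (vertical, log scale, with 0 drawn at 0.05) against the summed FPKM of 6 striated muscle markers (horizontal, log scale) in the 16 livers, coloured by group. NC + BBR library 2, at 172 FPKM of muscle markers, holds the highest value of all 3 isoforms.

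The subunit transcripts are short. Of the 83 tested members 82 had an annotated coding transcript; the median of their longest ones was 870 bases, from 360 to 4715, against 2789.5 bases for 9070 tested genes, with a GC content of 51.6% against 50.7%. Across those 82 genes, Pearson's r between log transcript length and the deviation from the NC mean was -0.33 in KD library 1, -0.03 in KD library 2, -0.29 in KD library 3 and -0.17 in KD library 4. Over 9070 genes it was -0.06, 0.02, -0.08 and 0.06. Genes are not independent replicates, so these are descriptions of single libraries. Some members resemble other genes: 20 share at least 1 stretch of 150 bases with another gene, and in 9 over 10% of such stretches are shared, up to 44.6% in Atp5l and 33.1% in Atp5g2, whose counts are therefore uncertain.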

How the data were processed

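Poly(A) RNA of 16 mouse livers was read paired-end on an Illumina instrument, per the labels' protocols. The authors deposited 1 table with a read count and an FPKM value per gene and library, per the file headers. The submitters' processing notes name cutadapt 1.9, HISAT2 2.0.4, StringTie 1.3.4d, edgeR, DESeq2 and build mm10, without roles. The library kit marks strand, and whether counting used strand is not given in the sources used here. In each library more genes held a count of 4 (760 to 1283) than of 3 (253 to 439) or 5 (144 to 208), so the smallest counts are not simple read tallies. FPKM is listed as 0.0001 for a count of 0, taken as 0 here.

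Counts were scaled by TMM and tested with edgeR 4.0.16 (quasi-likelihood, 1 fit of 4 group means over 16 libraries, two-sided, Benjamini-Hochberg over the 10846 genes with at least 1 FPKM in 4 libraries) in R 4.3.3. Normalised counts are log2 CPM with TMM, and group overlap and deviations from NC use them. limma 3.58.1 on log2(FPKM + 1) and DESeq2 1.42.0 were alternatives, beside other scalings, filters, a replicate block and each library left out. Named genes were those with the smallest p of each complex in each comparison, the 3 smallest of the interaction and of each other list, catalytic subunits, tissue isoforms and members below the filter. Ndufb4, Sdhd and other members outside these were chosen after their values were seen. The members and gene lists were chosen with earlier results of these data known. No pair of libraries was identical, and replicates differed by more than sampling noise (chi-square per gene from 163 to 1970). Same-numbered libraries of different groups had correlations of their deviations from -0.17 to 0.21, over 0.1 in 4 of 24 pairs, so numbers were not taken as pairs.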

Additional observations from a re-analysis of the deposited data

Results flagged for a closer look

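In 10 of 116 sets of 4 libraries, over 29 quantities, 1 library lay far from the other 3 by Dixon's test. Chance alone marks about 1 in 20 such sets. KD library 4 accounts for 4 of the 10. There Ndufa4 stood at 21.1 FPKM against 123 to 125 FPKM in the other KD livers, and Cox7a2 at 26.6 FPKM against 93.5 to 105 FPKM. Its mitochondrially encoded share was 35.4% of counts against 11.2% to 15.4%, and its ratio of mitochondrial to nuclear subunit counts was 41.3 against 7.31 to 9.57.

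NC + BBR library 2 accounts for 2 more, both muscle-type isoforms: Cox8b at 15.05 FPKM against 0 to 0.501 FPKM and Cox7a1 at 13.5 FPKM against 1.33 to 3.24 FPKM. The remaining 4 fell in 3 libraries. Uqcrq was 298 FPKM in NC library 4 against 229.9 to 235 FPKM, and Cox6a1 was 679 FPKM there against 704 to 705 FPKM. Sdhb was 74.2 FPKM in KD + BBR library 3 against 99.6 to 102 FPKM. Cox8b was 1.51 FPKM in KD + BBR library 4 against 0 to 0.171 FPKM.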

How the results depend on the processing

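Of 159 counts of called members under alternatives, 158 stayed at 0, and 10 members passed in KD against NC without KD replicate 2, a range of 0 to 10 over single libraries left out. Ndufv1, Sdha, Uqcrq, Atp5pb, Atp5a1 and Atp5b, named in that comparison, are among the 10. Of 159 medians 4 moved by more than the spread of replicates (SD 0.17), all on the FPKM scale with limma: KD + BBR against KD stood at 0.0888 with a pseudocount of 1 and 0.0891 with 0.1, and the interaction at 0.130 and 0.131. Of 1016 gene values 5 turned sign. Cox7a1 in NC + BBR against NC ran from -0.27 to 1.40 over single libraries left out and was -0.28 without both KD replicate 4 and NC + BBR replicate 2. Cox8b in KD + BBR against NC + BBR ran from -5.99 to 0.36, and was 0.35 without both. Cox4i1 in KD against NC was 0.0356 without KD replicates 3 and 4. With the replicate block, KD against NC gave a median of -0.11 and 0 members called, and the block changed no other call. Library numbers were not taken as pairs, as given with the processing. That last pair of libraries left out together, the reading of transcript types (20 members tested when only 1 type is allowed) leaving out the low tissue isoforms and leaving libraries out of the other gene lists were alternatives chosen after seeing the data. The causes were not tested.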

Other observations

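mt-Atp6, a mitochondrially encoded subunit of complex V, fell into 2 ranges that did not follow the groups. It held 10794, 10043, 2490.3 and 2346 FPKM in NC and 1968, 1777, 9954 and 10361 FPKM in NC + BBR. In KD it held 3096, 10785, 2377 and 33743 FPKM, and in KD + BBR 14413, 2139.7, 2556 and 2928 FPKM. Every group had libraries in both ranges, and no value lay between 3096 and 9954 FPKM. Over the 78 tested mitochondrial ribosomal protein genes, the median log2 fold change of KD against NC was -0.12, with 28 higher and 50 lower, close to the -0.10 of the subunit genes. The 87 tested cytosolic ribosomal protein genes had a median of 0.20, with 67 higher and 20 lower. By edgeR 0 genes of both lists passed an adjusted p of 0.05, the lowest being 0.267.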
